A study of Mus musculus with 12 samples.

Results

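The genes described here are 10 members of the NRF2 and glutathione defence: Gclc, Gclm, Slc7a11, Gsr, Txnrd1, Srxn1, Nqo1, Hmox1, Abcc1 and Osgin1. They were picked by gene symbol from the 23077 genes of the deposited table, and all 10 passed the filter on low values. RNA was measured by polyA sequencing in primary mouse embryonic fibroblasts carrying the Hb9::GFP reporter, which reports the motor neuron factor Mnx1, during their conversion to induced motor neurons. Every group was infected with a retrovirus encoding Ngn2, Isl1 and Lhx3, the NIL factors, and was collected on day 4 after infection. RISDD cells (3 libraries) also received a virus with HRAS(G12V), a constitutively active RAS, placed before an internal ribosome entry site (IRES) that was followed by SNAP-tagged p53DD, a dominant-negative p53 fragment. SDDIR cells (2 libraries) received the same parts in the other order, with HRAS(G12V) after the IRES, where a protein is usually made at a lower level. SDD cells (3 libraries) received SNAP-p53DD with no HRAS, and NIL cells (3 libraries) received the NIL virus alone. On day 3 all cells were moved to a neuronal medium with growth factors, and the TGF-beta receptor inhibitor RepSox was given to all but the NIL group. RISDD, SDDIR and SDD cells were sorted as SNAP-positive, and NIL cells as live single cells. In each comparison with NIL, the virus, RepSox, the staining and the sort therefore change together and cannot be told apart. In RISDD cells SNAP-p53DD is the part after the IRES. HRAS and the place of p53DD thus change together in RISDD against SDD and in RISDD against SDDIR, and cannot be told apart.

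NRF2, encoded by Nfe2l2, is the transcription factor that switches on antioxidant genes. Its partner KEAP1 holds it in the cytoplasm and hands it to a ubiquitin ligase for destruction until reactive molecules modify KEAP1. Freed NRF2 pairs with small MAF proteins and binds antioxidant response elements (AREs) near genes for glutathione synthesis, disulfide reduction and export. In fibroblasts these genes buffer the oxidants made during growth signalling and culture.

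The promoter of Srxn1 is shown because this gene had the largest change of the 10 in RISDD against SDD, and those of Gclm and Txnrd1 because they hold an ARE core and neither gene passed the test in any comparison. RefSeq (GRCm38.p6) promoters running from 250 bases before to 50 bases after a gene start were found for 6 of the 10 genes, 8 promoters in all. The ARE core was searched as TGACNNNGC and the AP-1 site, bound by FOS and JUN proteins, as TGANTCA, both on either strand. Capitals mark the matches, and sequences are 5′ to 3′ on the gene's strand.
Srxn1 promoter, chr2:152105274-152105573, plus strand: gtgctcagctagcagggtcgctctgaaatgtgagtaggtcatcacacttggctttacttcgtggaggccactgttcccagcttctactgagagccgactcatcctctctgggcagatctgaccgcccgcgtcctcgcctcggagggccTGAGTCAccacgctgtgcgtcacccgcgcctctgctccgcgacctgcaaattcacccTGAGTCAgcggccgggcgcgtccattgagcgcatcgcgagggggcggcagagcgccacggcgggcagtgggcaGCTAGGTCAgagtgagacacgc
Gclm promoter, chr3:122245307-122245606, plus strand: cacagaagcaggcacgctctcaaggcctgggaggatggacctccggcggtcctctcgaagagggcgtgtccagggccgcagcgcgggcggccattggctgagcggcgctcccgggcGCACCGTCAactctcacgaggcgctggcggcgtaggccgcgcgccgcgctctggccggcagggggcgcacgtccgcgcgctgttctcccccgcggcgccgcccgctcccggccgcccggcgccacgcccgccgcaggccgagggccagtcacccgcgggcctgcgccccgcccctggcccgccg
Txnrd1 promoter, chr10:82858956-82859255, plus strand: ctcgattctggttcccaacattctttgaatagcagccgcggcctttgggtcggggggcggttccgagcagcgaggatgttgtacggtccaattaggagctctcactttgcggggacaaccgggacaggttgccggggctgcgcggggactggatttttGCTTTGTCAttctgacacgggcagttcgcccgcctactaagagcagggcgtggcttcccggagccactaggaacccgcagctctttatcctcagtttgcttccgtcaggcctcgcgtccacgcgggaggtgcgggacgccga
The Srxn1 promoter held 2 copies of TGAGTCA, whose first bases lay 102 and 45 bases before the start site, and an ARE core, TGACCTAGC, on the opposite strand 28 bases after it. In Gclm the core was TGACGGTGC on the opposite strand, 134 bases before the start. In this promoter of Txnrd1, 1 of 3 listed for the gene, it was TGACAAAGC on the opposite strand, 92 bases before the start. The Osgin1 promoter held TGACTCA, an AP-1 match, and no match overlapped a match of the other motif as spelled here. In Srxn1 the TGAGTCA 45 bases before the start is followed by GC, and TGAGTCAGC differs from the searched ARE core in 1 letter. Other spellings of the ARE were not searched, so this site is not shown to be an AP-1 site alone. ARE cores were thus found in 3 of the 8 promoters and AP-1 sites in 2 of 8, against 12.4% and 7.81% of 32851 promoters of the same length. A match describes these letters and does not show binding.

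Values are the authors' normalised signal, in which each library's gene counts had been divided by one constant, and genes are not compared with each other on it because it is not scaled by length. The recovered reads ranged from 14872639 to 29815073 per library. NIL C stood apart from NIL A and NIL B: mitochondrial genes made up 0.537% of its signal, against 2.6% to 4.04% in the other 10 libraries. Fold changes and tests come from limma on log2(signal + 1) fitted over 14207 genes and all 4 groups, and "rose", "fell" and "passed" mean a Benjamini-Hochberg adjusted p under 0.05. Replicates are labelled biological replicates, but no source used here says whether they came from separate cultures, so p-values measure the spread between these samples, which may be technical. The 6 comparisons share libraries, and their results are not independent of each other. In bulk RNA, fewer cells of a type and less RNA per cell cannot be told apart.

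Against SDD, 5 of the 10 genes rose in RISDD cells and 0 fell, where 42.6% of all tested genes passed, 20.0% rising and 22.6% falling. The genes that rose were Srxn1, Slc7a11, Abcc1, Nqo1 and Gclc, covering peroxiredoxin repair, cystine uptake, export, quinone reduction and glutathione synthesis. The disulfide reductase genes Gsr and Txnrd1 did not pass. The median log2 change of the 10 genes was 0.82, against 0.02 over all tested genes. The 10 genes were chosen with earlier results of these data known, which may have shaped such medians. In SDDIR cells 3 of the 10 rose against SDD and 0 fell, where 22.5% of all genes passed, 8.66% rising and 13.9% falling, and the median log2 change was 0.32 against 0.01. RISDD cells differed from SDDIR cells in 1 gene, Srxn1, which rose, where 9.69% of all genes passed, 4.64% rising and 5.05% falling. Here the median log2 change was 0.49 against 0.01 over all genes, and 9 of the 10 genes had no overlap between the groups, as had 60.1% of all tested genes. Groups did not overlap for 7 of the 10 genes in RISDD against SDD, where 70.7% of all tested genes did not, and for 6 of the 10 in SDDIR against SDD, where 64.9% did not. The SDDIR count against SDD was 1 without SDDIR A. The count of 1 in RISDD against SDDIR was 2 without SDD A or NIL A, 3 without NIL B and 4 without NIL C. Of all 14207 tested genes, 1304, 1349, 1563 and 4182 passed without SDD A, NIL A, NIL B and NIL C, against 1377. Without SDDIR A or SDDIR B, 1 SDDIR library remained, and the log2 change of Srxn1 was 1.49 or 1.21. In each comparison where 0 of the 10 genes rose or 0 fell by limma, 0 also did so in that direction at an unadjusted p under 0.05, and 0 by edgeR or DESeq2 on recovered reads.

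**Figure D1:**
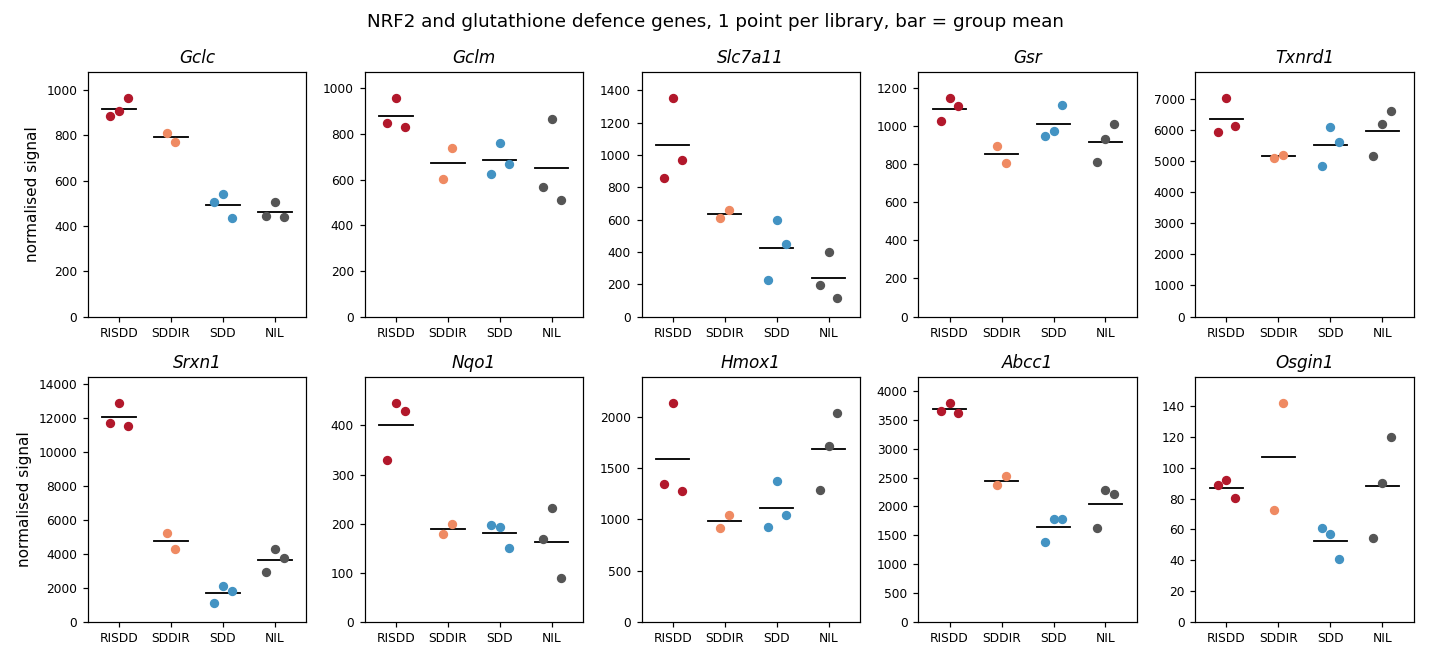
Normalised signal (linear axis from 0) of each of the 10 genes in each library, grouped as RISDD, SDDIR, SDD and NIL; each point is 1 library and the bar is the group mean. Srxn1 stands at 11532 to 12842 in RISDD libraries, above every SDDIR, SDD and NIL library, while the groups of Txnrd1 lie close together.

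Gclc (ENSMUSG00000032350) encodes the catalytic subunit of glutamate-cysteine ligase, the rate-limiting enzyme of glutathione synthesis. Its signal was 883, 907 and 964 in RISDD libraries, 811 and 771 in SDDIR, 504, 539.6 and 436 in SDD, and 444, 505 and 441 in NIL. The RISDD and SDDIR libraries all lay above the SDD and NIL libraries, and the SDD and NIL libraries overlapped. Gclc rose 1.87-fold in RISDD against SDD (log2 0.90, 95% interval 0.63 to 1.17, adjusted p = 0.000193). It rose 1.61-fold in SDDIR against SDD (adjusted p = 0.00514; without SDDIR A 0.0548, and 8.09e-06 to 0.0548 over all 20 alternatives). RISDD and SDDIR cells did not differ past the threshold (log2 0.21, 95% interval -0.09 to 0.52, adjusted p = 0.4).

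Gclm (ENSMUSG00000028124) encodes the modifier subunit of the same ligase, which raises its efficiency. Its signal was 847, 957 and 829.9 in RISDD libraries, 604 and 739 in SDDIR, 624, 759 and 669.6 in SDD, and 569, 865 and 512 in NIL. RISDD libraries all lay above the SDDIR and SDD libraries, but NIL B lay among the RISDD values. No comparison of Gclm passed: the log2 change in RISDD against SDD was 0.36 (95% interval -0.06 to 0.79, adjusted p = 0.158). The log2 change against NIL was 0.47 (adjusted p = 0.0664), and without NIL B it passed (log2 0.70, adjusted p = 0.00435, within 0.00435 to 0.184 over the alternatives). The 2 subunits of 1 enzyme thus differed in which comparisons passed, and the difference between them was not tested.

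Slc7a11 (ENSMUSG00000027737) encodes the transporter subunit that brings in cystine, the source of the cysteine in glutathione. Its signal was 859.6, 1352 and 967 in RISDD libraries, 607 and 657 in SDDIR, 226, 600.5 and 448 in SDD, and 195, 400.2 and 117 in NIL. RISDD libraries were highest, SDDIR libraries lay just above SDD B, and replicates spread more than those of Gclc. Slc7a11 rose 2.64-fold in RISDD against SDD (log2 1.40, SE 0.44, adjusted p = 0.0255, 0.00581 to 0.109 over the alternatives). This call was lost without RISDD B (0.0954), RISDD C (0.0586), SDD A (0.109) or SDD C (0.0506). Against NIL it rose 4.94-fold in RISDD cells (log2 2.31, adjusted p = 0.00175), which was the largest rise of the 10 genes in that comparison, and 3.71-fold without NIL C (adjusted p = 0.00586). In SDDIR against SDD the log2 change was 0.68 (95% interval -0.41 to 1.77, adjusted p = 0.376).

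Gsr (ENSMUSG00000031584) encodes glutathione reductase, which returns oxidised glutathione to its reduced form with NADPH. Its signal was 1024, 1146 and 1102 in RISDD libraries, 897 and 804 in SDDIR, 945, 971 and 1108 in SDD, and 809.7, 932 and 1009 in NIL. The RISDD libraries overlapped those of SDD, and the SDDIR libraries were the lowest of the groups given the SNAP tag. No comparison passed, with a log2 change of 0.12 in RISDD against SDD (95% interval -0.16 to 0.39, adjusted p = 0.497) and 0.36 in RISDD against SDDIR (95% interval 0.05 to 0.67, adjusted p = 0.146). Without NIL C the gene passed in RISDD against SDDIR (adjusted p = 0.0244, within 0.0125 to 0.539 over the alternatives) and in RISDD against NIL (log2 0.33, adjusted p = 0.0186, within 0.0186 to 0.319).

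Txnrd1 (ENSMUSG00000020250) encodes cytosolic thioredoxin reductase, the NADPH-dependent enzyme that keeps thioredoxin reduced. Its signal was 5945, 7029 and 6127 in RISDD libraries, 5112 and 5206 in SDDIR, 4855, 6098 and 5604 in SDD, and 5152, 6180.2 and 6625 in NIL. RISDD, SDD and NIL libraries overlapped, and no comparison passed. The log2 change was 0.21 in RISDD against SDD (95% interval -0.09 to 0.50, adjusted p = 0.237) and -0.12 in SDD against NIL (95% interval -0.41 to 0.18, adjusted p = 0.561).

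Srxn1 (ENSMUSG00000032802) encodes sulfiredoxin, which repairs overoxidised peroxiredoxins. Its signal was 11693, 12842 and 11532 in RISDD libraries, 5202 and 4287 in SDDIR, 1106, 2119 and 1833 in SDD, and 2907, 4305 and 3725 in NIL. RISDD libraries were the highest and SDD libraries the lowest, and the SDDIR and NIL libraries, which overlapped, lay between them. Srxn1 averaged 12022 ± 714 in RISDD cells and 1686 ± 522 in SDD cells (SD, n = 3 each), a 7.38-fold rise (log2 2.88, SE 0.23, adjusted p = 5.22e-06). This rise ranked 350 among 14207 genes ordered from the largest rise down, and the adjusted p stayed between 1e-29 and 7.06e-05 over the 20 alternatives. In SDDIR cells the rise against SDD was 2.90-fold (log2 1.54, SE 0.26, adjusted p = 0.00195). RISDD cells were 2.54-fold above SDDIR cells (log2 1.35, SE 0.26, adjusted p = 0.00998, 1.23e-05 to 0.0993 over the alternatives), a call lost without SDDIR A (0.0643) or SDDIR B (0.0993). Against NIL, Srxn1 fell in SDD cells by 1.15 on the log2 scale, 2.21-fold lower (adjusted p = 0.00827, 7.6e-05 to 0.0679 over the alternatives), and it was the gene of the 10 that passed there. The value of 0.0679 came from the fit of those 2 groups alone.

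Nqo1 (ENSMUSG00000003849) encodes a quinone reductase widely used as a readout of NRF2 activity. Its signal was 330.2, 445 and 430 in RISDD libraries, 178 and 199 in SDDIR, 198, 193 and 151 in SDD, and 168, 232 and 89.3 in NIL. RISDD libraries were above all others, and the SDDIR, SDD and NIL libraries overlapped. Nqo1 rose 2.21-fold in RISDD against SDD (log2 1.15, SE 0.30, adjusted p = 0.0111) and 2.62-fold against NIL (log2 1.39, adjusted p = 0.00383). In RISDD against SDDIR the log2 change was 1.08 (95% interval 0.33 to 1.83, adjusted p = 0.0744, 0.000638 to 0.348 over the alternatives). That difference passed without NIL B (0.0339) or NIL C (0.00272). In SDDIR against SDD the log2 change was 0.07 (95% interval -0.68 to 0.82, adjusted p = 0.922).

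Hmox1 (ENSMUSG00000005413) encodes heme oxygenase, which breaks down heme. Its signal was 1341, 2129.7 and 1276 in RISDD libraries, 915 and 1041 in SDDIR, 920.1, 1373 and 1038 in SDD, and 1289, 1717 and 2033 in NIL. RISDD and NIL libraries overlapped, as did SDDIR and SDD libraries. The log2 change in RISDD against SDD was 0.49 (95% interval -0.04 to 1.02, adjusted p = 0.123). Hmox1 fell in SDDIR against NIL by 0.76 on the log2 scale (adjusted p = 0.0495, 0.0225 to 0.236 over the alternatives). Leaving out any of 9 libraries ended this call: RISDD A (0.0658), RISDD C (0.0594), SDDIR A (0.236), SDDIR B (0.13), SDD A (0.0582), SDD B (0.0515), SDD C (0.0718), NIL B (0.0825) or NIL C (0.0913). Macrophages are known for strong Hmox1 expression. In the same comparison 11 of 12 macrophage and leukocyte markers fell, where 18.2% of all tested genes fell. Their summed signal was 386 and 1024 in SDDIR libraries, with Cx3cr1 at 0 in both, against 4154, 16328 and 7082 in NIL libraries. In RISDD against NIL 9 of these markers fell and 1 rose, where 23.5% of all tested genes fell. Hmox1 had a log2 change of -0.10 there (adjusted p = 0.747). The part of these markers in the Hmox1 values was not tested.

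Abcc1 (ENSMUSG00000023088) encodes a membrane pump that exports glutathione and glutathione conjugates. Its signal was 3652, 3787 and 3616 in RISDD libraries, 2369 and 2525 in SDDIR, 1388, 1775 and 1777 in SDD, and 1628, 2293 and 2223 in NIL. RISDD libraries were the highest, SDDIR libraries came next, and SDD and NIL libraries overlapped below them. Abcc1 rose 2.25-fold in RISDD against SDD (log2 1.17, SE 0.15, adjusted p = 0.000147) and 1.82-fold against NIL (adjusted p = 0.00116). In SDDIR against SDD it rose 1.49-fold (adjusted p = 0.034, 0.0083 to 0.191 over the alternatives). It no longer passed when any RISDD, SDDIR or SDD library was left out: SDDIR A (0.126), SDDIR B (0.191), SDD A (0.108), SDD B (0.0519), SDD C (0.0544), RISDD C (0.0564), RISDD B (0.0568) or RISDD A (0.057). RISDD against SDDIR gave a log2 change of 0.59 (95% interval 0.21 to 0.97, adjusted p = 0.0569, 0.000207 to 0.303 over the alternatives), which passed without SDD A (0.0491), NIL A (0.0288), NIL B (0.049) or NIL C (0.013). In SDD against NIL the log2 change was -0.31 (adjusted p = 0.188, 0.0459 to 0.464 over the alternatives), which passed without NIL A (0.0459).

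Osgin1 (ENSMUSG00000074063), a growth inhibitor induced by oxidative stress, had a signal of 89, 92 and 80.6 in RISDD libraries, 72.8 and 142 in SDDIR, 60.9, 57.1 and 40.5 in SDD, and 54.5, 90.3 and 120.4 in NIL. RISDD and SDDIR libraries all lay above the SDD libraries, while the NIL libraries overlapped all 3 of these groups. No comparison passed: log2 0.73 in RISDD against SDD (95% interval -0.02 to 1.48, adjusted p = 0.108) and log2 0.96 in SDDIR against SDD (95% interval 0.12 to 1.79, adjusted p = 0.101). Without NIL C both passed (0.0451, within 0.0166 to 0.294 over the alternatives, and 0.033, within 0.033 to 0.586).

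**Figure D2:**
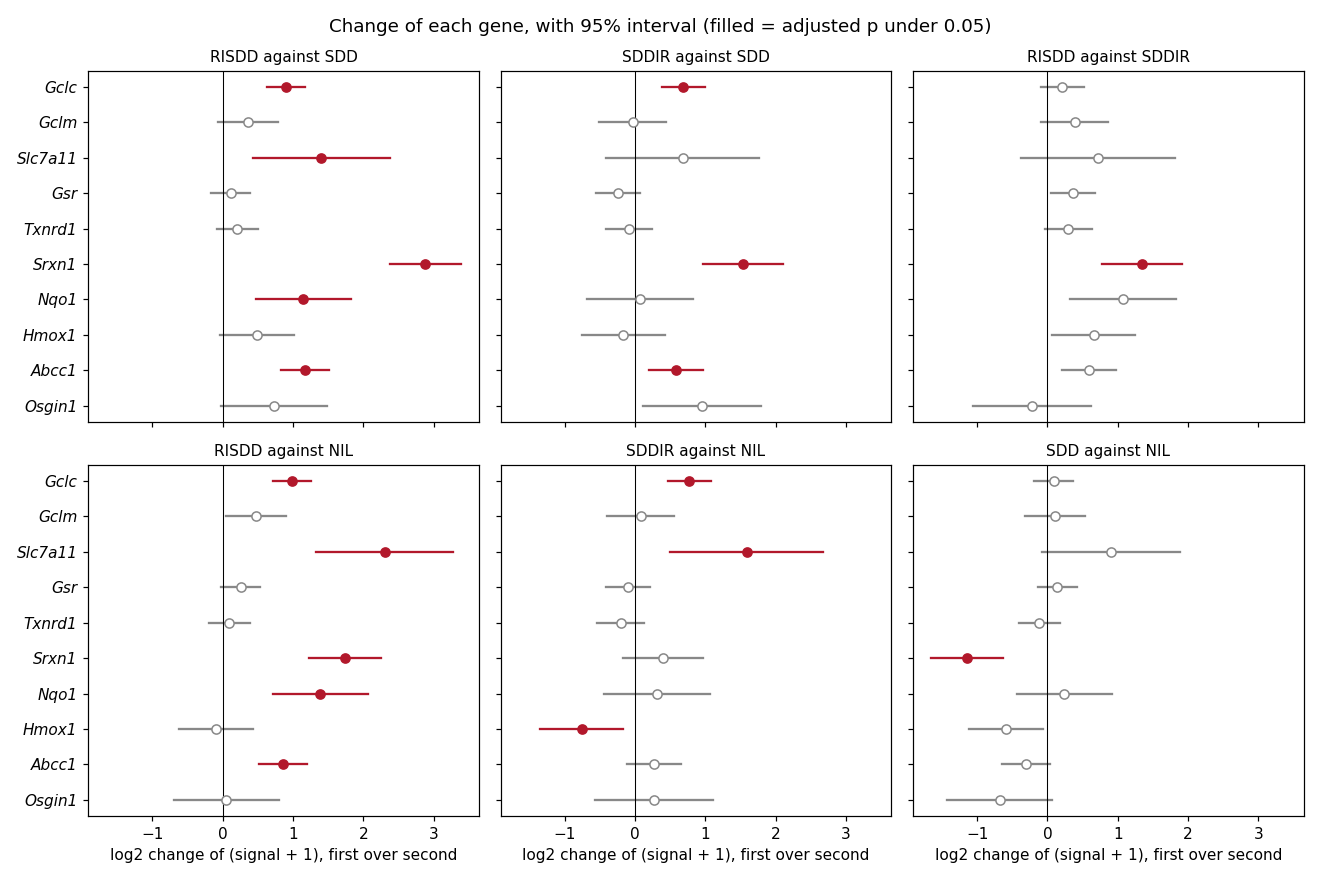
Log2 change of (signal + 1) of each gene in the 6 comparisons, first group over second, with its 95% interval; filled red points passed (adjusted p under 0.05) and open grey points did not. In RISDD against SDD all 10 points lie above 0, from 0.12 for Gsr to 2.88 for Srxn1, and in SDD against NIL Srxn1 is the filled point, at -1.15.

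Against NIL, 5 of the 10 genes rose in RISDD cells and 0 fell, where 46.7% of all tested genes passed, 23.2% rising and 23.5% falling. They were Slc7a11, Srxn1 (3.34-fold, adjusted p = 0.000166), Nqo1, Gclc (1.98-fold, adjusted p = 0.000112) and Abcc1, and each of them passed in all 20 alternatives. Without NIL C the rises in RISDD against NIL were 3.39-fold for Srxn1, 2.01-fold for Nqo1, 1.94-fold for Gclc and 1.91-fold for Abcc1. Without it Gclc rose 1.67-fold in SDDIR against NIL, and Srxn1 was 2.18-fold lower in SDD against NIL (adjusted p = 0.0142). In SDDIR cells 2 rose and 1 fell against NIL, where 33.5% of all genes passed, 15.3% rising and 18.2% falling. Gclc rose 1.71-fold (adjusted p = 0.00204) and Slc7a11 rose 3.00-fold (adjusted p = 0.031, 0.00533 to 0.142 over the alternatives), and the gene that fell was Hmox1. The count of 3 was 1 without SDDIR A, SDDIR B or NIL C. The Slc7a11 call was lost without SDDIR A (0.126), SDDIR B (0.142), NIL A (0.0627) or NIL C (0.074). In SDD cells 0 rose and 1 fell, Srxn1, where 17.6% of all genes passed, 9.32% rising and 8.26% falling. Slc7a11 had a log2 change of 0.90 in SDD against NIL (95% interval -0.07 to 1.88, adjusted p = 0.177, 0.0362 to 0.439 over the alternatives), which passed without NIL B (0.0362). The count in SDD against NIL was 2 without NIL A, where Abcc1 was added, or without NIL B. Of all tested genes, 2601 passed without NIL A and 2816 without NIL B, against 2498 with all libraries.

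The genes did not share 1 pattern over the 11 libraries. Srxn1 and Abcc1 were the most alike pair (Pearson r = 0.974 of log2 signal over 11 libraries), followed by Txnrd1 and Hmox1 (r = 0.903) and by Gclm and Nqo1 (r = 0.869). Gsr and Osgin1 were the least alike (r = -0.168), and Hmox1 had r = -0.02 with Gclc. These values describe libraries that fall into 4 groups and carry no test. Outside the 10 genes, the pattern of Srxn1 was closest to that of Anxa7 (r = 0.993), Stxbp2 (r = 0.99) and Rtn4 (r = 0.989). Slc7a11 was closest to Nfat5 (r = 0.982), Dnah2 (r = 0.975) and Mphosph10 (r = 0.97), and Hmox1 to Slc20a2 (r = 0.938), Srgn (r = 0.924) and Fzd9 (r = 0.922).

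Among 10 regulators of NRF2, 4 rose and 0 fell in RISDD against SDD, where 20.0% of all tested genes rose and 22.6% fell. Of the 10, 1 fell without NIL A or NIL B. Without NIL C 5 rose and 3 fell, where 8983 of all tested genes passed against 6046. Nfe2l2, which encodes NRF2 itself, had a signal of 3764, 3863 and 3497 in RISDD libraries, 3422 and 3721 in SDDIR, 1698, 2324 and 1882 in SDD, and 2389, 2782 and 1605 in NIL. All RISDD and SDDIR libraries lay above all SDD and NIL libraries. Nfe2l2 rose 1.90-fold in RISDD against SDD (adjusted p = 0.003) and 1.83-fold in SDDIR against SDD (adjusted p = 0.0154, 0.000314 to 0.115 over the alternatives). The SDDIR call was lost without SDDIR A (0.075), SDDIR B (0.115), SDD A (0.0581) or SDD C (0.0507). RISDD and SDDIR cells gave a log2 change of 0.05 (95% interval -0.43 to 0.53, adjusted p = 0.927).

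Keap1, the inhibitor of NRF2, had a signal of 737, 605 and 661 in RISDD libraries, 758 and 708 in SDDIR, 992, 1007 and 970 in SDD, and 1093, 988 and 1994 in NIL. RISDD and SDDIR libraries all lay below the SDD and NIL libraries. Keap1 fell in RISDD against NIL by 0.96 on the log2 scale (adjusted p = 0.00586), and by 0.64 without NIL C, whose value was the highest (adjusted p = 0.000239). In RISDD against SDD its log2 change was -0.57 (adjusted p = 0.0631, 0.000194 to 0.177 over the alternatives), which passed without NIL B (0.0385) or NIL C (0.000194). Bach1, a repressor that competes for the same sites, passed in none of the 6 comparisons or their alternatives (log2 0.19 in RISDD against SDD, 95% interval -0.06 to 0.44, adjusted p = 0.205). Sqstm1, an autophagy receptor that binds KEAP1, rose 1.97-fold in RISDD against SDD (adjusted p = 0.000719), and the small MAF gene Mafg rose 1.73-fold (adjusted p = 0.00131). Mafk rose 1.48-fold (adjusted p = 0.0144, 0.000315 to 0.0611 over the alternatives), a call lost without RISDD C (0.0611).

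**Figure D3:**
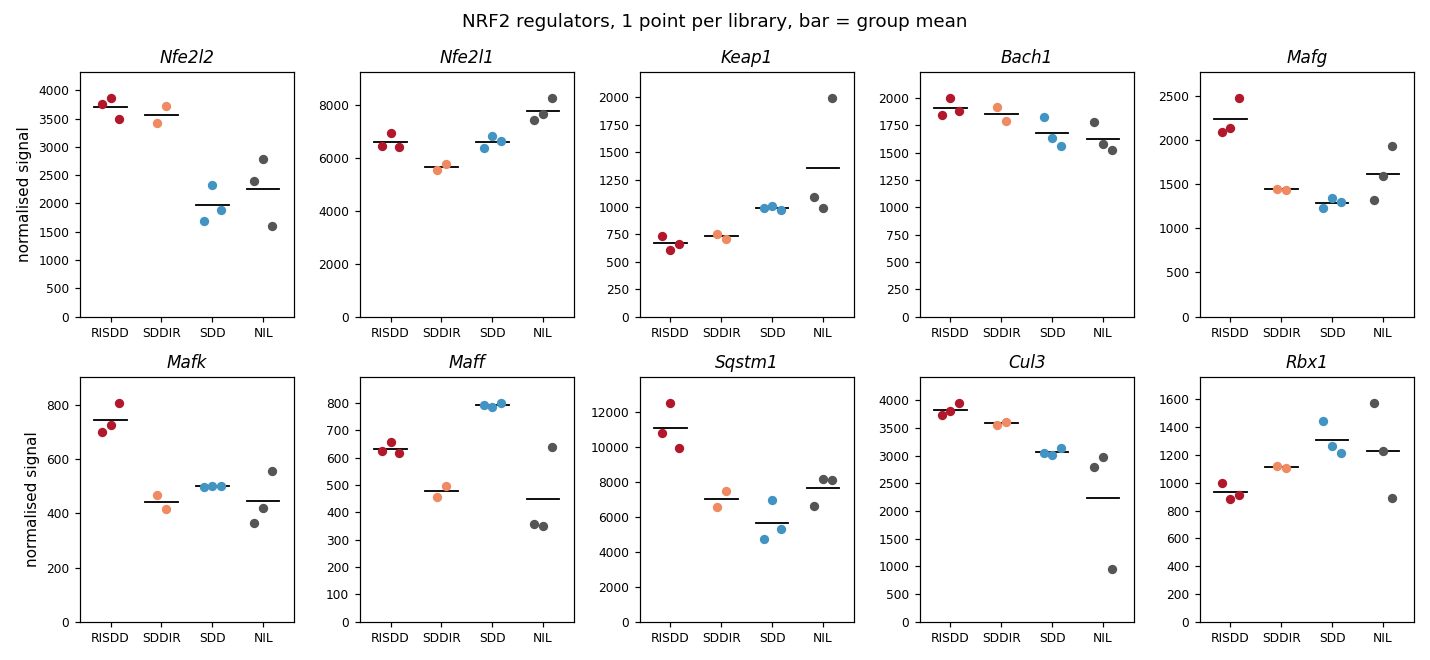
Normalised signal (linear axis from 0) of the 10 NRF2 regulators in each library, grouped as RISDD, SDDIR, SDD and NIL; each point is 1 library and the bar is the group mean. Nfe2l2 is higher in all RISDD and SDDIR libraries than in any SDD or NIL library, Keap1 is lower, and NIL C lies apart for Keap1 and Cul3.

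Genes of the surrounding pathways moved in both directions in RISDD against SDD. Of all tested genes 42.6% passed there, 20.0% rising and 22.6% falling, and each list count for this comparison stands beside that share. Of 23 tested genes of glutathione synthesis, use and transfer, 8 rose and 7 fell. Among those with a group mean of 100 or more, the 3 with the largest changes fell: the glutathione transferase Gstm2 (24.1 in RISDD and 160.4 in SDD cells, 6.49-fold lower, adjusted p = 4.11e-06), Gpx7, a peroxidase of the endoplasmic reticulum (3.44-fold lower, adjusted p = 1.06e-05), and the secreted peroxidase Gpx3 (3.39-fold lower, adjusted p = 0.00979). Of 14 thioredoxin and peroxiredoxin genes, 5 rose and 4 fell, and without RISDD C 2 fell. Prdx5, a peroxiredoxin, averaged 8241 in RISDD and 2549.5 in SDD cells (3.23-fold higher, adjusted p = 3.65e-05). The sestrins Sesn3 and Sesn1, known as targets of FOXO and p53, were 2.87-fold lower (adjusted p = 0.000739) and 2.11-fold lower (adjusted p = 0.0112, 0.000297 to 0.0525 over the alternatives, with 0.0525 without RISDD C).

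Of 12 genes that supply NADPH, the electron source of Gsr and Txnrd1, 4 rose and 1 fell, and 2 fell without SDD A. Without NIL C 6 rose and 3 fell, where 8983 of all tested genes passed against 6046. Tkt, a transketolase of the pentose phosphate pathway, averaged 6636 in RISDD and 2089.7 in SDD cells (3.19-fold higher, adjusted p = 0.000553). G6pdx, which feeds that pathway, was 1.91-fold higher (adjusted p = 0.000813), and Idh2, a mitochondrial isocitrate dehydrogenase, was 2.12-fold lower (adjusted p = 0.00506). Of 12 heme and iron genes, 5 rose and 3 fell: the transferrin receptor Tfrc averaged 2773 in RISDD and 459.6 in SDD cells (6.21-fold higher, adjusted p = 0.00077) and the biliverdin reductase Blvrb was 2.48-fold higher (adjusted p = 0.00223). The iron transporter Slc11a2 was 2.25-fold lower (adjusted p = 0.000288).

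Of 6 superoxide and peroxide enzymes, 1 rose and 1 fell: Cyba, a subunit of NADPH oxidases, was 1.90-fold higher (adjusted p = 0.00642), and Sod2, the mitochondrial superoxide dismutase, was 2.54-fold lower (adjusted p = 7.18e-05). Of 19 tested genes linked to NRF2 in detoxification, 5 rose and 5 fell. The export pump Abcc4 was 3.18-fold higher (adjusted p = 6.25e-05), the reductase Ptgr1 2.58-fold higher (adjusted p = 4.62e-05), and the epoxide hydrolase Ephx1 2.71-fold lower (adjusted p = 2.54e-05). Of 18 genes of the ATF4 amino acid response, the stress programme that also drives Slc7a11, 4 rose and 3 fell. Without NIL C 6 rose and 5 fell, where 8983 of all tested genes passed against 6046. Cth, which makes cysteine from cystathionine, was 2.63-fold higher (adjusted p = 0.000767), the amino acid carrier Slc7a3 2.38-fold higher (adjusted p = 0.00191), and the lipoprotein receptor Vldlr 2.08-fold lower (adjusted p = 6.01e-05). The medians of these 7 lists lay between -0.08 and 0.28 on the log2 scale, against 0.82 for the 10 genes and 0.02 for all genes. Because the 10 genes and the lists were chosen with earlier results of these data known, this difference cannot set the 10 genes apart from the lists.

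**Figure D4:**
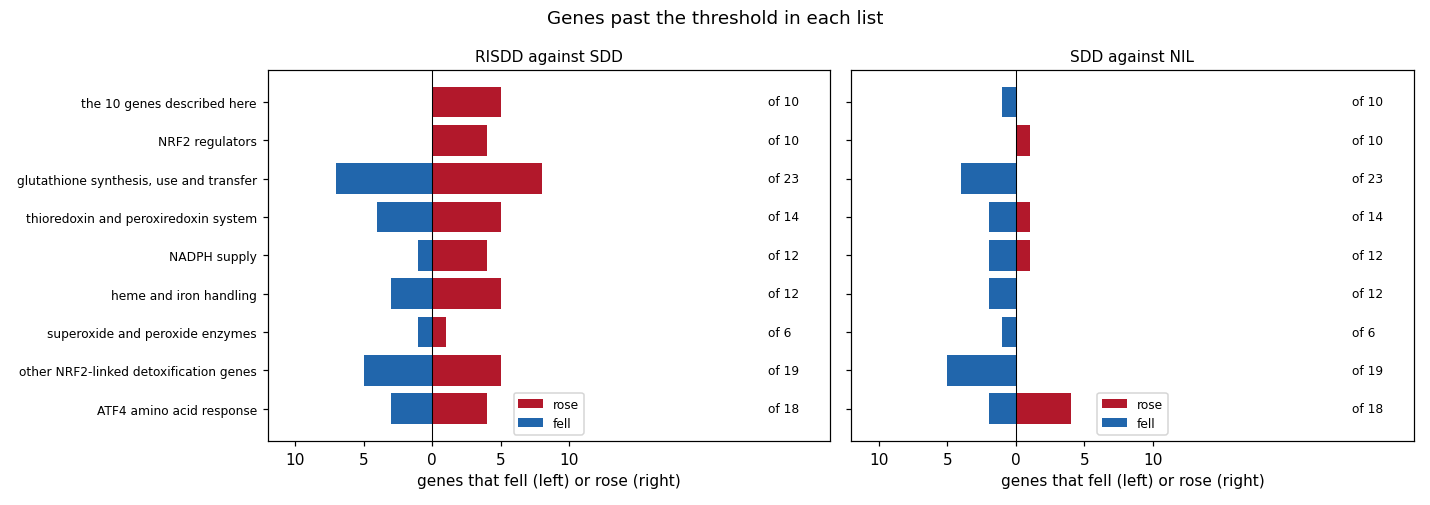
Number of genes that rose (red, right) or fell (blue, left) in each list, in RISDD against SDD on the left and SDD against NIL on the right, with the number tested beside each row. In RISDD against SDD the 10 genes have 5 rises and 0 falls, while the glutathione list has 8 rises and 7 falls. Of all tested genes 20.0% rose and 22.6% fell in that comparison. The 10 genes and the lists were chosen with earlier results of these data known.

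In SDD against NIL the glutathione list had 0 rises and 4 falls, where 17.6% of all tested genes passed, 9.32% rising and 8.26% falling. It had 2 falls without SDD B or SDD C. Without NIL C it had 1 rise and 8 falls, where 4128 of all tested genes passed against 2498. The detoxification list had 0 rises and 5 falls in SDD against NIL, with 2 falls without SDD A or SDD C. Without NIL C it had 1 rise and 7 falls. Fitting these 2 groups alone left 0 rises and 1 fall in each of both lists, where 697 of all tested genes passed. Gss, which completes glutathione, averaged 446 in SDD and 1105 in NIL cells (2.48-fold lower, adjusted p = 0.000641) and Ephx1 averaged 667 in SDD and 2447 in NIL cells (3.68-fold lower, adjusted p = 6.9e-05). In RISDD against SDDIR, where Srxn1 rose, Abcc4 was 2.90-fold higher (adjusted p = 0.0024) and Prdx5 2.43-fold higher (adjusted p = 0.00425, 3.48e-07 to 0.0556 over the alternatives, with 0.0556 without SDDIR A). Vldlr of the ATF4 list was 1.67-fold lower there (adjusted p = 0.00864), and Ddit4 1.93-fold lower (adjusted p = 0.0342). Sesn3 was 2.06-fold lower (adjusted p = 0.0458). The Ddit4 and Sesn3 calls were lost without RISDD A, RISDD B or RISDD C. In this comparison the detoxification list had 4 rises and 1 fall, the thioredoxin list 1 and 1, and the ATF4 list 1 and 2. Of all tested genes 4.64% rose and 5.05% fell. The metallothionein genes Mt2 and Mt1 were 3.69-fold higher (adjusted p = 0.00777) and 2.47-fold higher (adjusted p = 0.0105) in RISDD than in SDDIR cells. Both calls were lost without SDDIR A or without SDDIR B, with adjusted p up to 0.0768 for Mt2 and 0.102 for Mt1.

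Cell type markers also differed between groups, but not all in the same order. The RISDD and SDD libraries overlapped in the sums of neuron markers and of macrophage and leukocyte markers. In RISDD against SDD 42.6% of all tested genes passed, 20.0% rising and 22.6% falling. The summed signal of 10 fibroblast markers was 80383 to 83050.3 in RISDD, 137847 and 150909 in SDDIR, 494205 to 619116 in SDD and 627692 to 1052856 in NIL libraries, and 10 of 10 fell in RISDD against SDD. The sum of 10 neuron markers was 13949 to 15342 in RISDD, 6192 and 6439.8 in SDDIR, 7780.2 to 14915 in SDD and 2868 to 5525 in NIL libraries, with 4 rises and 5 falls in RISDD against SDD. The sum of 12 macrophage and leukocyte markers was 920.2 to 1752 in RISDD and 700.2 to 1921 in SDD libraries, with 1 rise and 4 falls, with 1 fall without RISDD A, RISDD C, SDD B or SDD C, and with 2 rises without SDDIR A or SDDIR B. The part of these markers in the changes of the 10 genes was not tested.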

How the data were processed

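Normalised gene values of 11 libraries were analysed, labelled RISDD A to C, SDDIR A and B, SDD A to C and NIL A to C. The submitters' processing notes name Salmon 1.10.3, Trim Galore 0.6.10 and the genome build GRCm39. The method of summing and scaling was not given in the sources used here. By its values, the deposited unit is signal: counts that the authors had divided by a constant per library. Values came out as whole multiples of 1 read for 100% of values in each library at a tolerance of 0.001, which gave the recovered reads. A further column repeated the heading of SDDIR B with the same values in all 23077 rows and was not used. Whether its values belong to replicate B or C is not known, so the letter of SDDIR B, also in the replicate block, rests on the heading. The other SDDIR sample in the labels was not used here.

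A gene needed a signal of 10 or more in 3 or more libraries, and the 14207 such genes were tested with limma 3.58.1 (R 4.3.3) on log2(signal + 1), with intensity trend, robust moderation, all 4 groups in one fit, and Benjamini-Hochberg adjustment over all tested genes. A fold change on this scale understates changes of low genes. The code was tested on simulated data. The 10 genes and the lists were chosen with earlier results of these data known. The text names the 10 genes, Nfe2l2, Keap1 and Bach1. From each list it also names up to 3 genes that passed with a group mean of 100 or more, by absolute log2 change. For Srxn1, Hmox1 and Slc7a11 it names the 3 genes with the highest Pearson correlation. Mafk was added after its values were seen. Alternatives were upper-quartile and quantile scaling, a pseudocount of 10, no filter, a minimum of 50, a replicate block, a fit of the 2 groups compared, edgeR 4.0.16 and DESeq2 1.42.0 on the recovered reads, and each library left out in turn. Spike-in rows were not used. Promoters came from RefSeq tables of GRCm38.p6, another build than the one in the notes.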

Additional observations from a re-analysis of the deposited data

How the results depend on the processing

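In no alternative did a gene of the 10 that passed change direction. In RISDD against SDD and RISDD against NIL the number of the 10 genes that passed, 5 in each, stayed at 4 to 6 and 5 to 6 with 1 library left out, and the other alternatives kept it within 1.5 times. Fitting only the 2 groups compared gave 0 genes in SDD against NIL in place of 1, 0 in SDDIR against NIL in place of 3, and 7 in RISDD against SDDIR in place of 1. In these 3 fits 697, 1590 and 4923 of all 14207 tested genes passed, against 2498, 4759 and 1377. RISDD against SDDIR gave 2 genes with quantile scaling and 3 with DESeq2, where 1372 and 2258 of all tested genes passed. The cause of these differences was not tested. At an unadjusted p under 0.05, 2 genes passed in SDD against NIL and 3 in SDDIR against NIL in those fits with 0. With 1 library left out, the counts were 1 to 2 in SDD against NIL, 1 to 4 in SDDIR against SDD, 0 to 4 in RISDD against SDDIR (0 without SDDIR A or SDDIR B, with 3 genes at an unadjusted p under 0.05 in each) and 1 to 3 in SDDIR against NIL. The replicate block gave 2 genes in RISDD against SDDIR, adding Nqo1 (adjusted p = 0.0375), and added Gclm in RISDD against NIL (adjusted p = 0.023). It changed no other call among the 10 genes. Whether the letters pair the libraries was not tested, and the main fit left the letters out. All 15 same-letter pairs had positively correlated deviations (r = 0.000225 to 0.271), 9 of them over 0.1, and 9 of 11 libraries were closest to their own letter. The letter of SDDIR B rests on its heading and may be B or C. Quantile scaling moved the median log2 change of all genes in SDDIR against SDD to 0.10, against 0.01 before.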

Other observations

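In RISDD against NIL, these genes outside the 10 passed in every alternative, some higher and some lower. Each was among the 3 genes of its list with the largest changes at a group mean of 100 or more. Atf3, a stress-induced transcription factor, averaged 1709 in RISDD and 282 in NIL cells (6.15-fold higher, adjusted p = 3.33e-06). It was higher still in SDD cells, which had no HRAS, at 3220.3 (11.5-fold above NIL, adjusted p = 6.18e-06). All SDD libraries lay above all RISDD libraries for Atf3. Slc7a3, a carrier of basic amino acids, averaged 580 in RISDD and 105 in NIL cells (5.69-fold higher, adjusted p = 2.15e-05). Cth, which makes cysteine, averaged 799 in RISDD and 201 in NIL cells (3.96-fold higher, adjusted p = 7.81e-05). The secreted peroxidase Gpx3 averaged 41.2 in RISDD and 476 in NIL cells (11.3-fold lower, adjusted p = 0.000148), and the epoxide hydrolase Ephx1 averaged 245 in RISDD and 2447 in NIL cells (9.96-fold lower, adjusted p = 1.33e-07). Without NIL C the changes were 6.78-fold, 4.91-fold and 3.78-fold higher for Atf3, Slc7a3 and Cth, and 14.9-fold and 9.95-fold lower for Gpx3 and Ephx1. The virus, RepSox and the sort change together in this comparison and cannot be told apart.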
